A study of Mus musculus with 39 samples.

Results

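The 77 mouse genes described here encode the proteins of the mitochondrial ribosome. They were chosen by name as the protein-coding genes whose symbol starts with Mrpl or Mrps followed by a digit. These were 48 Mrpl genes, named for the large subunit, and 29 Mrps genes, named for the small subunit. They came out of 17785 protein-coding genes and 30671 genes listed in all. The name alone chose the members, and no measured value was used. Names were not checked against the subunit that holds each protein. A further 5 processed pseudogenes with matching names were left out, and whether members share reads with them was not tested. All 77 genes were listed in every table and passed the filter on low reads in every comparison. Their gene models lie on 17 chromosomes, with 11 members on chromosome 11. A listed gene of another name overlaps 37 of them, 7 on the same strand and 32 on the other, so reads of those pairs may be shared.

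The mitochondrial ribosome translates the few messages of the mitochondrial genome, which encode core subunits of the respiratory chain and of ATP synthase. All of its proteins are encoded in the nucleus, made in the cytosol and imported, and they are joined to ribosomal RNA that is made inside the organelle. Many were classed as descending from bacterial ribosomal proteins (45 of the 77), and others as found in mitochondria alone (30, with 2 placed in neither class). Liver and skeletal muscle hold many mitochondria, and white adipocytes hold few.

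The mice were C57Bl6/J. A model of polycystic ovary syndrome (PCOS) was made by giving letrozole, an inhibitor of the aromatase that makes oestrogen, before puberty. From 12 weeks of age the PCOS mice were dosed orally for 6 weeks, one arm with vehicle and one with roxadustat. Roxadustat blocks prolyl hydroxylases, enzymes that tag hypoxia-inducible factors for breakdown. The remaining arm, without PCOS, was the control and was also given vehicle. Poly-A RNA was sequenced from liver and skeletal muscle of 4 mice in each arm, and from white adipose tissue (WAT) of 4 control mice, 6 PCOS mice given vehicle and 5 PCOS mice given roxadustat, 39 libraries from 18 mice. The labels do not say whether control mice received a sham in place of letrozole, and they name no adipose depot.

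Reads assigned to genes numbered 12389970 to 19639244 per library. Hepatocyte markers (Alb, Apoa1, Ttr, Fgb, Serpina1c) summed to 56005 FPKM or more in every liver library, muscle fibre markers (Acta1, Ckm, Myh4, Tnnt3, Mylpf) to 61447 FPKM or more in every muscle library, and adipocyte markers to 5354 FPKM or more in every WAT library, so each tissue carried its defining genes. FPKM divides fragments by the length of the gene model, so a level set beside that of another gene depends on both lengths. The library size implied by the deposited values was 1.26 to 1.59 times the recovered reads in WAT, 0.776 to 0.931 times in liver and 0.697 to 0.864 times in muscle. The values were thus not scaled to each library's own recovered reads, and levels set across tissues depend on a scaling that the sources used here do not give. Levels below are in FPKM, as mean ± SD over the mice of an arm, and differences are on the log2(FPKM + 0.5) scale. A gene is said to have passed the test where limma's p, adjusted by Benjamini-Hochberg over all genes tested in that comparison, was under 0.05.

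The upstream sequences of 5 members are shown as examples of the family's promoters, with and without the motifs counted below. They are the 250 bases before the RefSeq start in GRCm38.p6, an older build than the mm39 of the deposited tables. Mrpl52, Mrpl30 and Mrps36 are the members that passed a test between arms below, Mrpl12 is among the highest members in all tissues, and Mrpl57 had one of the lowest p-values of the family in PCOS liver. Capitals mark matches to 3 motifs, NRF-1 (GCGCA, any base, GCGC), ETS (CCGGAAG) and YY1 (AAGATGGC), on either strand.
Mrpl52, chr14:54426659-54426908, plus strand: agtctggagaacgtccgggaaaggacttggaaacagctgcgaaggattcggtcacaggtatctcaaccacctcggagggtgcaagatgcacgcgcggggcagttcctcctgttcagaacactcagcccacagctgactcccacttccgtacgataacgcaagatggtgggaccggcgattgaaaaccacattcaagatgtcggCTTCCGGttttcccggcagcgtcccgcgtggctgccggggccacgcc
Mrpl30, chr1:37890227-37890476, plus strand: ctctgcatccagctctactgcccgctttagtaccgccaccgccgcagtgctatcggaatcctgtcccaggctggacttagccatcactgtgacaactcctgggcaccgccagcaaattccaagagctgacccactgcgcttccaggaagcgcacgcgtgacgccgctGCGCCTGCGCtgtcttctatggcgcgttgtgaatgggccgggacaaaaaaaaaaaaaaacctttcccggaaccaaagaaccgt
Mrps36, chr13:100744660-100744909, minus strand: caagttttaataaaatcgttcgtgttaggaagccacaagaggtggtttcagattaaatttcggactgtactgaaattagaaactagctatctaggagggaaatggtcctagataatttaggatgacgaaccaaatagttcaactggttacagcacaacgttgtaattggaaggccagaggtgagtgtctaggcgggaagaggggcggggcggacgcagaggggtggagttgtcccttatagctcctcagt
Mrpl12, chr11:120484387-120484636, plus strand: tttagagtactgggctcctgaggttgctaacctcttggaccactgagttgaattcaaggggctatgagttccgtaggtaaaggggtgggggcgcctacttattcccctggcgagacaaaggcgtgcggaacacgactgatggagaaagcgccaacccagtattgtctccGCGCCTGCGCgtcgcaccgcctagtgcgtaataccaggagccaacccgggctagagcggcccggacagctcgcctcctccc
Mrpl57, chr14:57825989-57826238, plus strand: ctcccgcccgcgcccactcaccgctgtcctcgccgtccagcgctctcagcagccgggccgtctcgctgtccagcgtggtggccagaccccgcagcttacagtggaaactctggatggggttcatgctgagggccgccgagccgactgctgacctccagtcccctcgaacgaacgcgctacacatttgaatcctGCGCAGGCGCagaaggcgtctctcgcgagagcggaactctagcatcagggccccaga
Counting the first base after these stretches as 0, the ETS letters of Mrpl52 began at -47 and, past the printed stretch, at 2, both reading on the other strand. The NRF-1 letters began at -83 in Mrpl30, at -81 in Mrpl12 and at -57 in Mrpl57, and Mrpl57 had an ETS match at 4. Mrps36 had none of the 3 motifs.

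Windows of 300 bases, 250 before and 50 after the start, were held for 68 of the 77 members. The ETS letters were in 25 of them (36.8%), against 9.93% of 27025 genes and 17.5% of the 12307 genes that were also measured here. YY1 letters were in 12 (17.6%), against 3.19% and 4.64%, and NRF-1 letters in 13 (19.1%), against 5.19% and 9.82%. Any of the 3 was in 42 members (61.8%) and in 28.2% of measured genes. These factors are known from work in mammalian cells as regulators of nuclear genes for mitochondrial proteins. The ERR motif TCAAGGTCA was in 0 members, and the E-box CACGTG in 5 (7.35%, against 11% of measured genes). The TATA letters TATAAA were in 5 (7.35%, against 10.2%). The letters ACGTG, which form the core of the element bound by hypoxia-inducible factors and also lie within CACGTG, were in 16 (23.5%), against 27.7% of measured genes. The median GC content of the windows was 58.2% in members and 60.0% in measured genes. These are matches of letters on either strand, and nothing here measured binding.

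In control mice every member was expressed in every tissue, at a median of 11 FPKM in liver, 13.1 in muscle and 13.8 in WAT, with 43, 50 and 47 of the 77 at 10 FPKM or more. Which tissue held the highest level of a member depended on the scaling: it was liver for 22, muscle for 32 and WAT for 23 members as deposited, and 6, 18 and 53 with libraries rescaled to an equal FPKM total. Within one ribosome the genes differed widely in FPKM: the highest mean was 36.0 times the lowest in liver, 48.0 times in muscle and 42.3 times in WAT. Liver was led by Mrpl14 (91.4 ± 30.1), Mrpl18 (67.9 ± 9.31), Mrpl52 (64.2 ± 6.74), Mrps21 (61.3 ± 13.5) and Mrpl12 (52.8 ± 14.9). Neighbours in this order lay within their SDs. Muscle was led by Mrps21 (99.9 ± 31.1), Mrpl12 (73.0 ± 13.7), Mrps28 (72.0 ± 13.2), Mrpl2 (68.7 ± 15.8) and Mrpl34 (64.9 ± 11.8). WAT was led by Mrpl12 (92.3 ± 22.5), Mrpl34 (85.8 ± 20.5), Mrps21 (82.2 ± 20.2), Mrpl2 (54.9 ± 7.27) and Mrpl54 (50.7 ± 12.9). Mrpl12, which forms the flexible stalk that recruits translation factors and is present in several copies per ribosome in other organisms' counterparts, was thus among the 5 highest in all tissues, as was Mrps21, a small-subunit protein.

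The low end was shared too. Mrpl19, a large-subunit protein with a bacterial counterpart, was among the 3 lowest everywhere, at 2.55 ± 0.43 in liver, 2.95 in muscle and 2.18 ± 0.24 in WAT. Beside it stood Mrpl3 (2.75) and Mrps25 (2.54 ± 0.73) in liver, Mrps25 (3.48) and Mrps35 (2.08 ± 0.172) in muscle, and Mrps22 (3.41) and Mrpl47 (2.44) in WAT. The order of the 77 genes was similar between tissues, with Spearman's rho of 0.83 between liver and muscle, 0.84 between liver and WAT and 0.84 between muscle and WAT (77 genes, 4 control mice per tissue, and genes are not independent replicates). Of the 20 highest genes, 14 were shared between liver and muscle, 14 between liver and WAT and 15 between muscle and WAT. All these levels divide by gene-model length, which is the same in every tissue. The leaders named above had models of 607 to 1532 bases, and the lowest members named had 3991 to 8631. The spread and the shared order thus carry that divisor, and its part was not tested.

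Against that shared order, single members differed between tissues by several-fold. In muscle minus liver, 24 members were higher and 10 lower with limma's adjusted p under 0.05, 34 of 77 where 71.3% of all genes tested passed (36.6% higher and 34.8% lower). WAT minus liver gave 20 higher and 11 lower, where 57% of all genes passed (29.2% higher and 27.8% lower). WAT minus muscle gave 11 higher and 26 lower, where 68.9% passed (35.9% higher and 33% lower). The balance between WAT and the other tissues moved with the scaling: with each library rescaled to an equal FPKM total the counts against liver went to 50 higher and 1 lower, and those against muscle turned to 37 higher and 7 lower, so only members whose call kept under every alternative are named. Shares of all genes called after that rescaling are not given for these contrasts. WAT RNA was extracted with another kit, and kit and tissue cannot be told apart there.

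The members higher in muscle than in liver included Mrps23, a small-subunit protein found in mitochondria alone, at 49.5 ± 7.48 in muscle and 9.05 ± 2.86 in liver (log2 difference 2.42, SE 0.215). Mrpl42, a mitochondria-specific protein, stood at 59.9 ± 1.43 in muscle, 16.0 ± 2.41 in liver and 14.2 ± 2.43 in WAT, a difference of 1.89 (SE 0.139) for muscle minus liver and of -2.06 (SE 0.137) for WAT minus muscle. Mrps36 stood at 36.3 ± 10.1 in muscle and 8.94 ± 1.90 in liver (1.95, SE 0.210). It is also known as KGD4, a subunit of the 2-oxoglutarate dehydrogenase complex of the citric acid cycle, and its place in the ribosome is doubted. Mrpl44, whose fold resembles ribonuclease III, had 23.1 ± 1.52 in muscle and 5.92 ± 3.13 in liver (1.99, SE 0.273), and it overlaps Wdfy1. Mrpl3, a core protein of the large subunit, had 9.19 ± 0.656 and 2.75 ± 0.505 (1.59, SE 0.158), with an overlapping same-strand gene model. In control WAT, Mrps23 had 22.6 to 32.6 FPKM, Mrps36 15.2 to 24.3, Mrpl44 13.1 to 16.4 and Mrpl3 3.35 to 5.45. Mrps23 and Mrpl44 were also higher in WAT than in liver (1.58, SE 0.219, and 1.37, SE 0.282). Their difference from liver was thus not particular to muscle. In the other direction, Mrpl52, a mitochondria-specific large-subunit protein, was at 23.4 ± 9.38 in muscle and 64.2 ± 6.74 in liver (-1.50, SE 0.223). Mrpl27 was at 27.0 ± 9.30 and 51.5 ± 7.0 (-0.98, SE 0.232), and Mrps35 at 2.08 and 4.83 (-1.04, SE 0.151). Each of these passed limma's test in every alternative run.

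WAT was set apart by Mrps6 and Mrpl20, both with bacterial counterparts. Mrps6 was at 44.2 ± 6.48 in WAT, 6.53 ± 1.24 in liver (WAT minus liver 2.68, SE 0.176) and 5.59 ± 0.808 in muscle (WAT minus muscle 2.88, SE 0.144). Its gene model overlaps Slc5a3, a myo-inositol transporter gene on the same strand, so its reads cannot be assigned with certainty. Mrpl20 overlaps no listed gene and was at 48.9 ± 11.8 in WAT, 17.6 ± 5.0 in liver (1.47, SE 0.232) and 13.1 ± 4.17 in muscle (1.88, SE 0.224). Mrpl18 was lower in WAT (25.0 ± 7.95) than in liver (-1.46, SE 0.213).

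**Figure D1:**
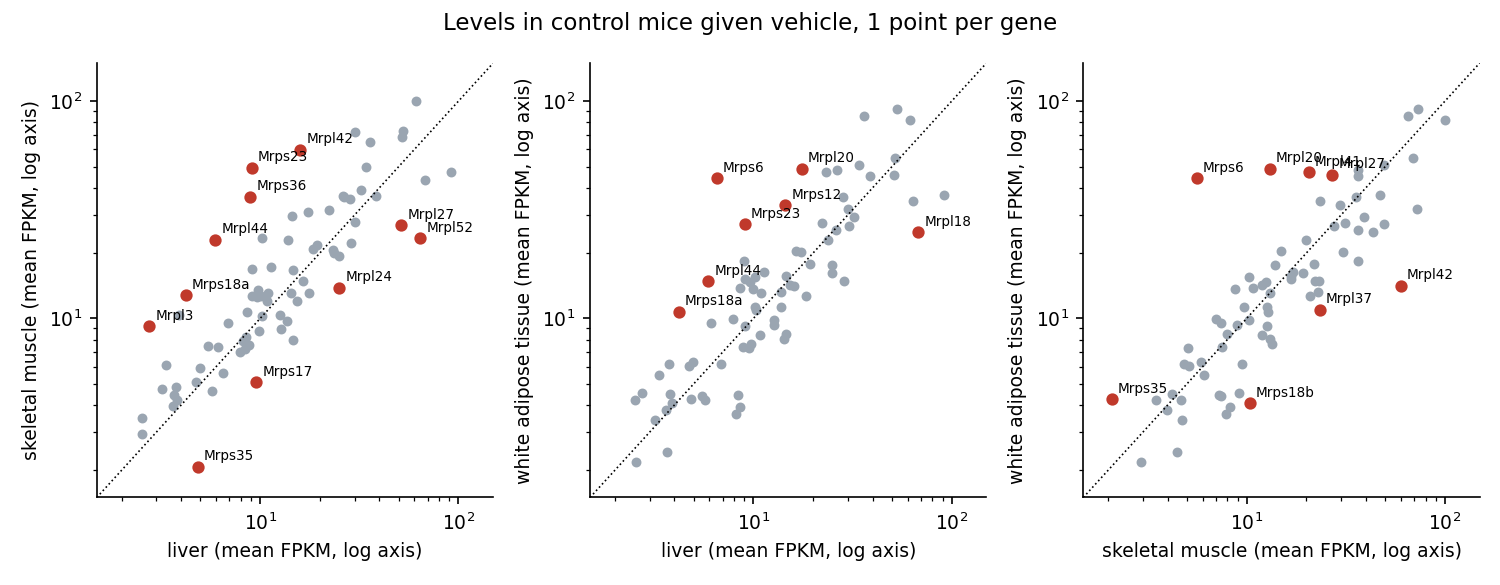
Mean level (FPKM, log axes) of each of the 77 genes in control mice given vehicle, tissue against tissue, 1 point per gene and 4 mice per tissue; named points passed limma's test in every alternative. Most points lie along the diagonal of equal level, while Mrps23 and Mrpl42 lie toward muscle against liver and Mrps6 and Mrpl20 toward WAT. Mrps23 also lies toward WAT against liver.

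In PCOS liver no member passed the test against control, yet the family as a whole leaned higher. Of 77 members, 65 had a positive difference and 12 a negative one, with a median of 0.23 where the median of all genes tested was 0.00. limma called 0 members where 0.82% of all genes were called, and voom on the recovered reads also called 0. At an unadjusted p under 0.05 there were 17 members, 22.1% of them, against 11.2% of genes. In 13 members every PCOS mouse was above every control mouse (16.9%, against 4.24% of genes), and in 0 every PCOS mouse was below (2.85% of genes). When libraries were rescaled to an equal FPKM total, the median of all genes moved to -0.19 and the members' median to 0.01. Rescaling shifts every gene of a library nearly alike, so the members' distance to the median gene (0.19 above it) was bound to change little. Under that rescaling the members' median was near 0, so its positive direction was not held there. As a share of a library's recovered reads, the members took 0.215% to 0.256% in control and 0.251% to 0.360% in PCOS livers. Summed over the 77 genes the level was 1380 ± 122 in control and 1874 ± 419 in PCOS mice (SD, n = 4 each). PCOS mouse 773 was the highest at 2490, and without it the median difference was 0.13, with 56 members higher. The arms differed in how short genes (under 1000 bases) and long genes (2500 bases and over) deviated in a library. The median deviation of short genes minus that of long genes, not a difference of levels, was compared. It ran from -0.234 to -0.0638 in control livers and from 0.00764 to 0.469 in PCOS livers. With the length trend removed from each library, a step added after seeing the data, the members' median was 0.15.

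Mrps28, a small-subunit protein (mm39 chr3:8867206-8988978, minus strand, overlapped by Gm15467 on the other strand), had 34.3, 18.6, 32.7 and 34.8 FPKM in the 4 control livers and 53.8, 62.5, 57.0 and 51.0 in the 4 PCOS livers (0.93, SE 0.216, adjusted p = 0.111 by limma). Every PCOS mouse was above every control mouse, with a gap between the arms of about the spread inside them. Mrpl57, a mitochondria-specific large-subunit protein (mm39 chr14:58063691-58066753, plus strand), had 12.6, 10.6, 16.1 and 11.2 in control and 19.0, 25.0, 25.9 and 19.5 in PCOS livers (0.80, SE 0.194, adjusted p = 0.127 by limma). Mrpl34, a short protein of the large subunit, had 34.3, 31.3, 44.1 and 34.4 against 45.1, 67.1, 58.4 and 72.1 (0.73, SE 0.194, adjusted p = 0.173 by limma). Both were without overlap between arms, though the lowest PCOS liver for Mrpl34 lay just above the highest control. Mrpl54 had the largest difference of the family (1.01, SE 0.318, adjusted p = 0.259 by limma), with 38.8, 17.4, 50.8 and 29.9 in control and 53.9, 99.5, 57.5 and 56.4 in PCOS livers. Its highest value again belonged to mouse 773. Mrps36 had 9.03, 9.98, 10.5 and 6.24 in control and 11.3, 20.9, 13.2 and 16.7 in PCOS livers (0.75, SE 0.235, adjusted p = 0.255 by limma). Mrpl23, which sits at the tunnel exit, had 9.76 ± 3.22 against 18.1 ± 5.97 (0.87, SE 0.272, adjusted p = 0.257 by limma). Its processed pseudogene Mrpl23-ps1 had 2.85 to 8.74 FPKM in control and 1.02 to 3.25 in PCOS livers, and sharing of reads was not tested. The most negative differences belonged to Mrpl44 (-0.45), Mrps2 (-0.27) and Mrps18b (-0.21), and in each the arms overlapped.

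The authors' deposited table, made with another test, listed 2 members under an adjusted p of 0.05 in this comparison. In the authors' deposited table Mrpl57 had a log2 fold change of 0.82 with an adjusted p of 0.0255, and Mrps28 one of 0.90 with an adjusted p of 0.0262, among 318 genes listed under that threshold. These are the 2 members with the lowest p in the limma fit.

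Roxadustat left no member called in liver against PCOS mice given vehicle. Positive differences numbered 33 and negative 44, with a median of -0.03, which turned to 0.07 (49 positive and 28 negative) with libraries rescaled to an equal FPKM total. limma and voom called 0 members, with 0% of all genes called by limma. At an unadjusted p under 0.05 there were 0 members, against 2.93% of genes. Against control, roxadustat-treated PCOS livers had 68 members with positive and 9 with negative differences, a median of 0.25 (0.13 with libraries rescaled to an equal FPKM total), and again 0 called by limma or voom (0% of all genes by limma) with 10 at an unadjusted p under 0.05 (8.11% of all genes). In 3 members, Mrpl34, Mrps7 and Mrps18a, every treated mouse was above every control (1.89% of all genes). This comparison shares its control mice with the one above. Mrpl34 had 70.0, 58.1, 75.5 and 61.4 in the roxadustat arm, all above the 4 control values (0.87, SE 0.165, adjusted p = 0.249 by limma). Mrpl54, at 69.3, 72.0, 78.2 and 31.2, and Mrps28, at 69.2, 59.4, 46.9 and 30.3, each had 1 mouse, number 808, back among the controls. Relative to PCOS mice given vehicle, the values of Mrpl44 (difference 0.51) and Mrps34 (0.49) were the most positive and Mrps36 (-0.40) the most negative.

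**Figure D2:**
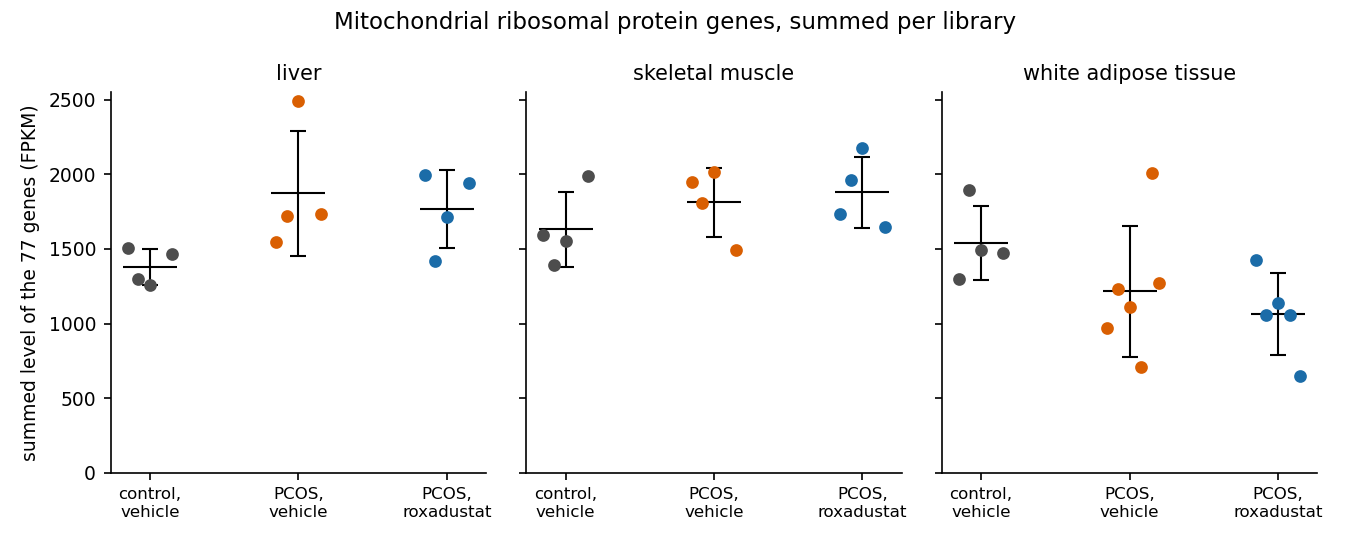
Summed level of the 77 genes (FPKM) in each library by tissue and arm; points are mice, and lines with bars are mean and SD. Liver sums are higher in PCOS than control mice (1874 ± 419 and 1380 ± 122), WAT sums are lower (1217 ± 438 and 1540 ± 251) with PCOS mouse 785 at 2008, and both directions weaken to near 0 in the members' median when libraries are rescaled to an equal FPKM total.

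In skeletal muscle the family differed little between arms. PCOS minus control gave 66 positive and 11 negative differences with a median of 0.12, and limma and voom called 0 members (0.104% of all genes by limma), with 3 at an unadjusted p under 0.05 (6.32% of all genes). In 0 members were the arms without overlap (1.88% of all genes higher and 1.91% lower). Rescaled to an equal FPKM total the median was 0.01, where that of all genes was -0.11. The median rested on few mice: it was 0.21 without PCOS mouse 785, 0.18 without control mouse 802 and 0.05 without control mouse 804. The most positive differences were those of Mrpl21 (0.39, SE 0.161, adjusted p = 0.747 by limma), Mrpl14 (0.39) and Mrpl54 (0.35), and the most negative those of Mrps22 (-0.16), Mrpl3 (-0.08) and Mrpl49 (-0.07). Mrps7, a protein of the head of the small subunit, had 36.9, 33.9, 40.7 and 34.6 in control and 46.3, 52.8, 40.0 and 46.2 in PCOS muscle. It had 45.2, 50.9, 44.4 and 50.5 under roxadustat, all above control (0.38, SE 0.0994, adjusted p = 0.215 by limma). Roxadustat minus PCOS vehicle gave a median of 0.03 with 0 called (0% of all genes), 0 at an unadjusted p under 0.05 (2.41% of all genes) and 0 by voom. Roxadustat minus control gave 66 positive and 11 negative differences, a median of 0.16 (0.08 after rescaling), and 0 called by limma or voom (0.349% of all genes by limma), with 8 at an unadjusted p under 0.05 (11.3% of all genes). In 5 members, Mrps7, Mrpl4, Mrpl38, Mrpl10 and Mrps10, every treated mouse was above every control (3.52% of all genes). That median was 0.11 without roxadustat mouse 782 and 0.10 without control mouse 804.

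In WAT the family leaned the other way. PCOS minus control gave 72 negative and 5 positive differences with a median of -0.35, where the median of all genes was near 0; limma and voom called 0 members (0.346% of all genes by limma), and 14 members had an unadjusted p under 0.05 (18.2%, against 12.1% of genes). In 3 members (Mrps15, Mrpl33 and Mrps5) every PCOS mouse was below every control mouse (3.9%, against 1.74% of genes), and in 0 above (1.41% of genes). Rescaled to an equal FPKM total, the median of all genes moved to 0.27 and that of the members to -0.06. Here too the distance to the median gene (-0.33) was bound to change little, and under that rescaling little of the members' own direction was left. Of a library's recovered reads, the members took 0.355% to 0.471% in control and 0.234% to 0.511% in PCOS WAT. Summed levels were 1540 ± 251 in 4 control mice and 1217 ± 438 in 6 PCOS mice, from 707 in mouse 814 to 2008 in mouse 785. Without control mouse 802 the median difference was -0.22. In whole tissue, fewer cells of a type and less RNA per cell cannot be told apart.

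The WAT libraries differed between arms in the summed RNA of markers of some cell types. Mesothelial markers (6 of 6 with a lower mean in PCOS mice, with Krt8 and Lrrn4 at 0 in some PCOS libraries) summed to 23.9 to 54.0 FPKM in control, 3.63 to 12.0 in PCOS vehicle and 4.64 to 14.6 in roxadustat libraries, without overlap with control. Macrophage markers summed to 121 to 185, 192 to 384 and 198 to 904 FPKM. Brown or beige adipocyte markers, which mark fat rich in mitochondria, summed to 165 to 1494 in control, with mouse 802 highest, 20.1 to 477 in PCOS vehicle and 28.2 to 403 in roxadustat libraries. Adipocyte markers summed to 14996 to 20500, 6394 to 39336 and 5354 to 17493 FPKM, with PCOS mouse 785 highest and mouse 814 lowest in their arm, as for the members' sum. The part of these cells in the members' differences was not tested.

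Mrps15, a small-subunit protein with a bacterial counterpart (mm39 chr4:125940718-125949325, plus strand), had 42.9, 45.7, 52.5 and 52.8 FPKM in control WAT. In PCOS WAT its lowest value was 15, its median 26.3 and its highest 36.3, the last in mouse 785. All 6 PCOS mice were below all 4 controls, but the difference of -0.94 (SE 0.223) missed the threshold (adjusted p = 0.0935 by limma), and it passed without mouse 785 (adjusted p = 0.0276 by limma). The authors' deposited table lists Mrps15 at -0.94 with an adjusted p of 0.0145, the only member under 0.05 among 419 genes in it. Mrps36 (mm39 chr13:100872463-100881167, minus strand) had 15.2, 18.3, 15.8 and 24.3 in control WAT, and 8.29, 10.1 and 16.0 as lowest, median and highest in PCOS WAT (-0.74, SE 0.211, adjusted p = 0.184 by limma). Its arms overlapped by 1 PCOS mouse. Mrpl12 had 77.3, 77.9, 88.9 and 125 in control, and 24.5, 50.5 and 118 as lowest, median and highest in PCOS WAT (-0.82, SE 0.347, adjusted p = 0.375 by limma), with mouse 785 inside the control range. Mrpl33 had 6.18 ± 3.47 in control and 3.14 ± 0.887 in PCOS WAT (-0.80, SE 0.285, adjusted p = 0.283 by limma). Its control mean rested on mouse 802 at 11.4, with 4.34 to 4.52 in the other controls, and without that mouse the difference was -0.48. The 3 most positive differences, in Mrps18b (0.39), Mrpl4 (0.09) and Mrps22 (0.07), were all with overlapping arms.

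Roxadustat against PCOS vehicle gave no called member in WAT: 21 differences were positive and 56 negative, with a median of -0.11 (-0.02 after rescaling), and 0 were called by limma or voom (0% of all genes by limma), with 0 at an unadjusted p under 0.05 (1.74% of all genes). The largest differences were those of Mrpl50 (0.26) and Mrps36 (0.19) upward, and Mrpl54 (-0.44), Mrps16 (-0.41) and Mrps24 (-0.39) downward. The direction rested on single mice: the median was 0.03 without roxadustat mouse 782 and 0.01 without PCOS mouse 785, and -0.23 without roxadustat mouse 764 or PCOS mouse 814. Leaving out 1 mouse moved Mrpl54 between -0.65 and -0.09, Mrps16 between -0.60 and -0.14 and Mrps24 between -0.54 and -0.13. Against control, roxadustat-treated PCOS mice gave 71 negative and 6 positive differences with a median of -0.44, and 2 members fell on FPKM as deposited. This comparison uses the same 4 control mice as PCOS minus control. Of all genes, 5.79% were called and 2.65% were called lower, so 2 of 77 members is near the background. At an unadjusted p under 0.05 there were 39 members (50.6%, against 26.7% of genes), and in 15 every treated mouse was below every control mouse (19.5%, against 5.13% of genes). Rescaled to an equal FPKM total, the median of all genes was 0.39 and that of the members came near 0, at -0.07. The members lay 0.46 below the median gene, a distance that this rescaling could hardly change. Under that scaling 3398 of all genes were called higher and 297 lower, and the calls of the family turned to 3 higher, Mrps18b (0.91, adjusted p = 0.0337 by limma), Mrpl10 (0.56, adjusted p = 0.0365) and Mrpl50 (0.48, adjusted p = 0.0267), and 1 lower, Mrpl52 (-0.75, adjusted p = 0.015). Voom called 5 lower, Mrpl52, Mrpl30, Mrps15, Mrps16 and Mrps21, and 0 higher. The share of all genes that voom called is not given here.

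The 2 members that fell on FPKM as deposited were Mrpl52 and Mrpl30. Mrpl52 (mm39 chr14:54664366-54667213, plus strand) had 31.8, 33.2, 26.6 and 47.9 FPKM in control WAT and 17.6, 16.1, 11.4, 16.2 and 15.1 in WAT of the roxadustat arm. Every treated mouse was well below every control, and PCOS mice given vehicle spread between, at 11.6, 21.4 and 31.8 as lowest, median and highest. The difference was -1.14 (SE 0.182, adjusted p = 0.0149 by limma), with adjusted p from 0.00801 to 0.0704 over the alternatives; it was lost where the 3 arms were fitted together, and kept under every scaling. Mrpl30 (mm39 chr1:37929558-37937616, plus strand), with a bacterial counterpart in the large subunit, had 26.2, 25.7, 25.9 and 31.9 in control and 21.7, 15.3, 12.3, 15.5 and 15.4 in roxadustat WAT. PCOS mice given vehicle ranged from 13.2 through a median of 16.7 to 35.2 in mouse 785. The difference was -0.77 (SE 0.158, adjusted p = 0.0263 by limma), with adjusted p up to 0.126 over the alternatives. That call was lost without the filter, with libraries rescaled to an equal FPKM total, with the 3 arms together, and when any of the treated mice 767, 795 and 809 or the controls 778, 779 and 802 was left out. Neither gene overlaps another listed gene.

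Just short of the threshold stood Mrps33 (-0.54, adjusted p = 0.0515 by limma), Mrps21 (-0.90, adjusted p = 0.0551), Mrps16 (-1.0, SE 0.273, adjusted p = 0.0554) and Mrps15 (-1.03, SE 0.295, adjusted p = 0.0622). Mrps16, in which human variants cause a combined respiratory chain deficiency, had 13.8 ± 2.77 FPKM in control and 7.0 ± 2.56 in roxadustat WAT. Mrps15 had 42.0, 25.5, 11.2, 27.1 and 21.2 in the treated mice, with mouse 764 just under the lowest control. Without mouse 764 limma called 15 members in place of 2. The share of all genes called without that mouse is not given here, so the 15 cannot be set against it.

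**Figure D3:**
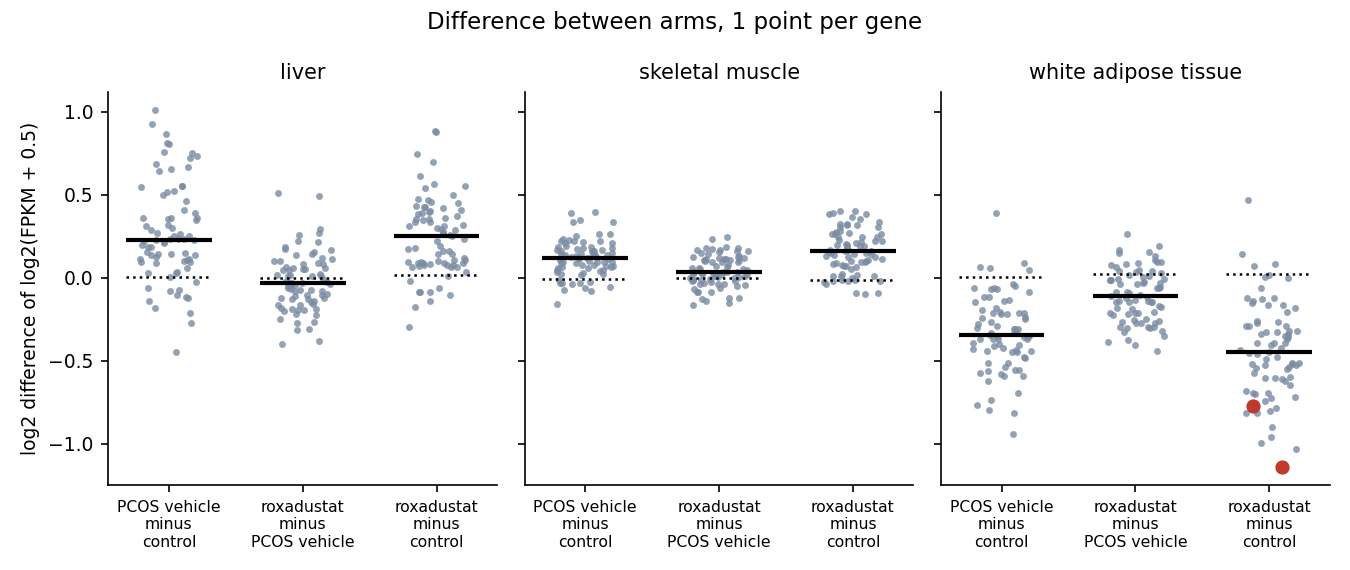
Log2 difference between arms of each of the 77 genes in each tissue, on the log2(FPKM + 0.5) scale; bars mark the members' median, dotted lines the median of all genes tested, and large red points the members that passed limma's test. Most points lie above 0 in liver and below it in WAT for both PCOS arms against control, the 2 red points in WAT are Mrpl52 (-1.14) and Mrpl30 (-0.77), and with libraries rescaled to an equal FPKM total the members' medians come close to 0 and 3 members are called higher and 1 lower in WAT.

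**Figure D4:**
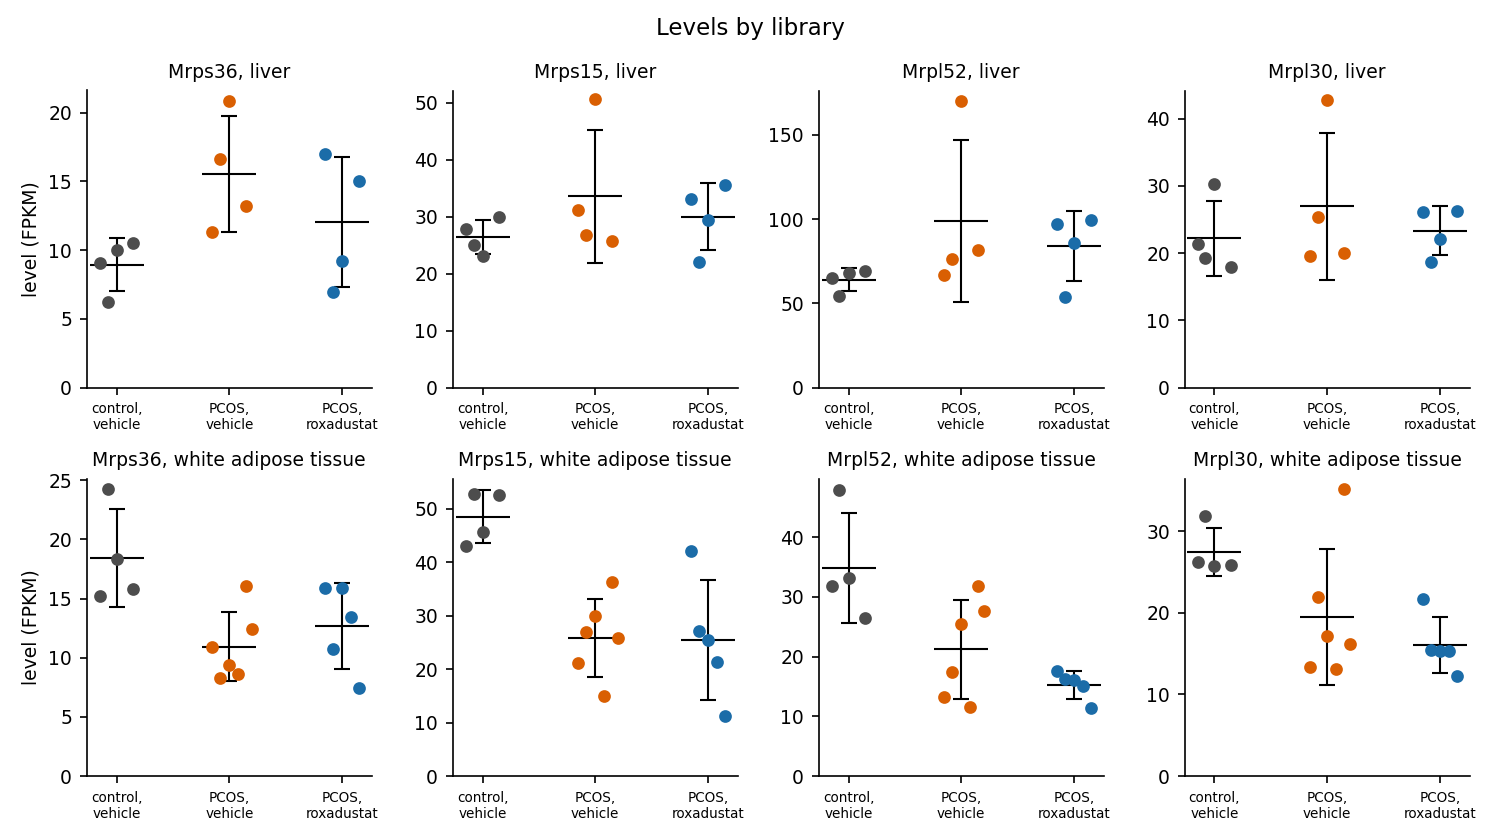
Levels (FPKM) of Mrps36, Mrps15, Mrpl52 and Mrpl30 in each library of liver and WAT by arm; points are mice, and lines with bars are mean and SD. In WAT every PCOS mouse given vehicle lies below every control for Mrps15, and every roxadustat-treated mouse lies below every control for Mrpl52 and Mrpl30.

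The opposite lean of liver and WAT was tested gene by gene as an interaction of tissue and arm (PCOS minus control, WAT minus liver). Mrps36 passed: its difference was 0.75 in liver, -0.74 in WAT and -0.06 in muscle, and WAT minus liver came to -1.49 (SE 0.317, adjusted p = 0.0331 by limma). It was the only member called, where 0.756% of all genes were called and 0.518% were called lower. At an unadjusted p under 0.05 there were 32 members (41.6%, against 14.4% of genes), and 72 of 77 interactions were negative with a median of -0.57. With libraries rescaled to an equal FPKM total 44 were negative with a median of -0.07, where the median of all genes was 0.44. The adjusted p of Mrps36 ran from 0.00794 to 0.129 over the alternatives. The call was lost with libraries rescaled to an equal FPKM total (adjusted p = 0.0671), by voom (0.129), with the length trend removed (0.0604) and when any of the WAT mice 796, 779 and 802 or the liver mice 773, 814, 789 and 804 was left out. Next came Mrpl57 (-1.13, SE 0.279, adjusted p = 0.063 by limma) and Mrps15 (-1.23, SE 0.324, adjusted p = 0.078 by limma). Without WAT mouse 785 limma called 10 members, and the share of all genes called in that run is not given here. WAT minus muscle gave 72 negative interactions of 77, a median of -0.47 (45 negative and -0.05 after rescaling, where all genes had 0.36), 0 called by limma or voom (0.154% of all genes by limma) and 11 at an unadjusted p under 0.05 (9.79% of all genes). Liver minus muscle gave 55 positive of 77, a median of 0.14 (41 positive and 0.03 after rescaling), 0 called by limma or voom (0.504% of all genes by limma) and 2 at an unadjusted p under 0.05 (7.24% of all genes). That median was 0.02 without liver mouse 773 and 0.06 without muscle mouse 785.

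Taken relative to the median gene of each tissue, 54 of the 77 members (70.1%) were above it in PCOS liver and muscle and below it in PCOS WAT, against 2111 of 11440 other genes (18.5%). With libraries rescaled to an equal FPKM total the shares were 67.5% and 17.2%. Rescaling shifts all genes of a library nearly alike, so these shares could change little. The pattern is that of the members' own medians in these same fits, so a higher share among members was built in. Other genes were not matched for length, and those under 1000 bases had medians of 0.24 in liver, 0.10 in muscle and -0.29 in WAT. Some of the same mice gave all 3 tissues, so these shares are a description.

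By role, most members followed the lean of their tissue in PCOS minus control on FPKM as deposited, and 0 members passed the test in any tissue. The signs depend on the scaling: with libraries rescaled to an equal FPKM total, 42 of 77 were positive in liver, 42 in muscle and 31 in WAT. Of the stalk, Mrpl12 had a difference of 0.39 in liver, 0.21 in muscle and -0.82 in WAT, Mrpl11 one of 0.03, 0.09 and -0.51, and Mrpl10 one of 0.14, 0.08 and 0.05. Mrpl10, which anchors the stalk to the ribosome, thus did not share the negative value of its partners in WAT, with 23.0 ± 3.32 FPKM in control, 24.2 ± 5.46 in PCOS vehicle and 25.6 ± 4.35 in roxadustat mice. Of the core proteins that join early, Mrpl3 had -0.18, -0.08 and -0.07, Mrpl4 had 0.36, 0.21 and 0.09, and Mrpl13 had 0.14, 0.05 and -0.35 in liver, muscle and WAT. Around the tunnel exit, where new chains leave toward the inner membrane, Mrpl23 had 0.87, 0.33 and -0.28, Mrpl24 had 0.15, 0.07 and -0.41, and Mrpl45, which holds the ribosome to the membrane, had 0.23, 0.09 and -0.37. All 3 were positive in liver and muscle and negative in WAT, as was Mrpl58 (0.23, 0.16 and -0.37), a peptidyl-tRNA hydrolase that frees stalled chains.

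In the decoding region of the small subunit, Mrps7 had 0.54, 0.34 and -0.44, Mrps12 had 0.26, 0.16 and -0.31, and Mrps5 had 0.22, 0.02 and -0.36 in liver, muscle and WAT. Mrps2 differed from these in liver, at -0.27, with 0.09 in muscle and -0.21 in WAT. Mouse and human carry 3 paralogs in Mrps18a, Mrps18b and Mrps18c, of which Mrps18c alone was classed here with a bacterial counterpart. Their values were unlike. Mrps18a had 0.22 in liver and -0.31 in WAT and Mrps18c had 0.09 and -0.58, while Mrps18b had -0.21 in liver and 0.39 in WAT, the reverse of its paralogs. Mrps18b had 4.06 ± 1.49 FPKM in control and 5.71 ± 3.21 in PCOS WAT, and mouse 785 stood apart at 12.1; it overlaps Gm16279. Of 4 members known from human disease, Mrpl44 had -0.45 in liver and -0.36 in WAT, Mrps16 had 0.11 and -0.59, Mrps22 had 0.12 and 0.07, and Mrps34 had -0.06 and -0.05. Mrps27, a pentatricopeptide-repeat protein, had 0.23 and -0.22, and Mrpl41 had 0.31 and -0.53. By name series and ancestry the medians were close on FPKM as deposited. The median of the Mrpl genes was 0.24 in liver and -0.37 in WAT and that of the Mrps genes 0.22 and -0.27. Members with a bacterial counterpart had medians of 0.23 and -0.35, and those without one 0.21 and -0.32. Members with NRF-1 letters in the promoter window had medians of 0.23 in liver and -0.36 in WAT, and those without 0.22 and -0.35.

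Gene length moved with the differences. The members span 607 to 8631 bases of gene model, with a median of 2533. In PCOS liver the 8 members under 1000 bases had a median of 0.74 (8 of 8 positive) and the 39 members of 2500 bases and over one of 0.18, while other genes had 0.24 and -0.03. In PCOS WAT the same members had -0.47 and -0.31, and other genes -0.29 and 0.03. In roxadustat WAT minus control they had -0.74 and -0.37, and other genes -0.29 and 0.07. In each of these 3 comparisons members were farther from 0 than other genes of like length in the shortest and in the longest class. With the trend on length removed from each library, a step added after seeing the data, the members' medians were 0.15 in PCOS liver, 0.08 in PCOS muscle, -0.27 in PCOS WAT and -0.33 in roxadustat WAT against control, and 3 members were called in the last. The share of all genes called with the trend removed is not given here.

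**Figure D5:**
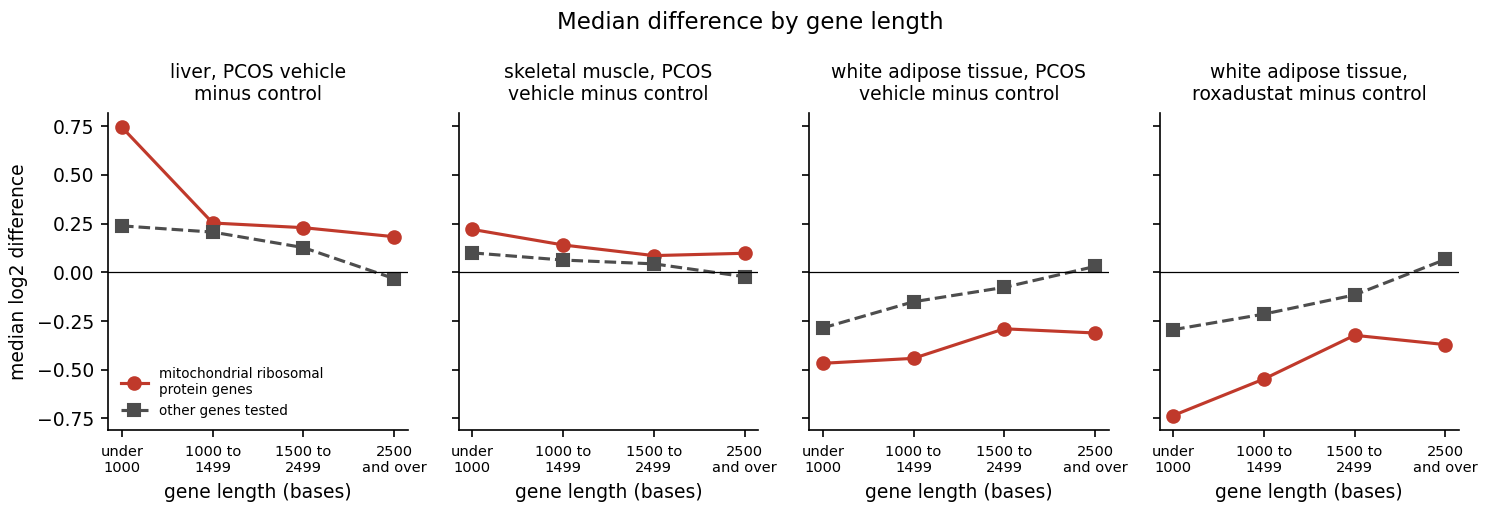
Median log2 difference by class of gene length (bases) for the mitochondrial ribosomal protein genes (red circles) and other genes tested (grey squares), in 4 comparisons. Short genes lie farther from 0 than long genes in both sets, and members lie above other genes in liver and muscle and below them in WAT in every class, on FPKM as deposited.

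Other genes of mitochondrial gene expression and of respiration gave a frame for these values; their lists were chosen with earlier results of these data known. The nuclear genes of oxidative phosphorylation, which work beside the proteins that the mitochondrial ribosome makes, had larger differences in the same directions, and kept those directions with libraries rescaled to an equal FPKM total (medians 0.25 in PCOS liver, -0.36 in PCOS WAT and -0.41 in roxadustat WAT minus control). In PCOS liver 69 of 77 of them were positive with a median of 0.48 and 0 called, and in PCOS WAT 78 of 79 were negative with a median of -0.66 and 0 called. In roxadustat WAT minus control their median was -0.81, and 14 of 79 fell (2.65% of all genes were called lower), led by Atp5k (-1.51), Ndufb9 (-1.49), Ndufa3 (-1.45) and Uqcrb (-1.29). After rescaling 14 were called lower, against 1.92% of all genes. Cytosolic ribosomal protein genes had medians of 0.31 in PCOS liver and -0.57 in PCOS WAT (0.08 and -0.27 after rescaling). In roxadustat WAT minus control 24 of 82 fell and 3 rose. After rescaling 14 fell (17.1%, against 1.92% of all genes) and 3 rose (3.66%, against 21.9% of all genes). Those 3 were Rpl24 and 2 entries named as pseudogenes, Rpl10-ps3 and Rps18-ps5. Rpl9-ps6, also named as a pseudogene, was among the 14. The 13 mitochondrially encoded messages, which are the only templates of this ribosome, had a median of 0.11 in PCOS liver that turned to -0.11 after rescaling, and in PCOS WAT all 13 were negative with a median of -0.96 and 0 called (-0.66 after rescaling). mt-Nd3 was the only one called in roxadustat WAT minus control, where it fell (-2.35, SE 0.453, adjusted p = 0.023 by limma). After rescaling mt-Nd3 was called lower and mt-Nd4l higher (1.2, adjusted p = 0.0444 by limma). Reads of these genes took 11.2% to 21.0% of control, 6.63% to 14.3% of PCOS vehicle and 6.48% to 13.3% of roxadustat WAT libraries.

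Factors that build or run the mitochondrial ribosome had medians nearer to 0 on FPKM as deposited, and those in WAT became positive with libraries rescaled to an equal FPKM total. The 43 assembly and translation factors had medians of 0.08 in PCOS liver, 0.01 in PCOS muscle and -0.14 in PCOS WAT. In roxadustat WAT minus control 2 of the 43 fell, where 2.65% of all genes were called lower. They were Slirp (-1.03, adjusted p = 0.027 by limma), which stabilises mitochondrial messages, and Mtres1 (-1.02, adjusted p = 0.047). The single calls of the lists below stand beside that same share. The 20 mitochondrial aminoacyl-tRNA synthetases had medians of 0.15, 0.01 and -0.05, with Lars2 lower in the last comparison (-0.69, adjusted p = 0.042 by limma). The mitochondrial transcription genes had medians of -0.02, -0.09 and -0.16, with Mterf1a lower there (-0.68, adjusted p = 0.039 by limma). The regulators of mitochondrial biogenesis had medians of -0.02, 0.01 and -0.09, with Myc lower there (-0.51, adjusted p = 0.047 by limma). The 5 mitoribosomal proteins that carry other names had medians of 0.32, 0.07 and -0.19, with 0 called in these 3 comparisons. After rescaling, the WAT medians of these lists in PCOS minus control ran from 0.11 to 0.22, below the 0.27 of all genes. In roxadustat minus control 5 of 43 factors were then called higher (11.6%, against 21.9% of all genes) and 1 lower, Slirp. Called higher were also 2 synthetases, 1 transcription gene and 2 biogenesis regulators, with 0 of these lists called lower, so Lars2, Mterf1a and Myc lost their calls.

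Within an arm the members varied together from mouse to mouse, most of all in WAT. After the arm means were removed, the median correlation of log2 levels over pairs of members was 0.29 in liver (12 libraries), 0.57 in muscle (12) and 0.66 in WAT (15), and 75.6%, 89.9% and 95.8% of pairs were positive. These libraries also share depth and gene-length trends. In WAT the members' median deviation was 0.639 in PCOS vehicle mouse 785, -0.544 in PCOS vehicle mouse 814 and -0.652 in roxadustat mouse 782. The deviation of short genes minus that of long genes moved alike in them (0.474, -0.398 and -0.519). Correlations among other genes are not given, so joint variation is not shown to be particular to the family. In WAT 50 members had a correlation above 0.8 with the mean of the rest, in muscle 40 and in liver 6. Mrpl46 followed the rest most closely in WAT (0.99) and Mrpl18 least (0.08). In liver Mrps35 was highest (0.87) and Mrps2 lowest (-0.38), and in muscle Mrpl12 was highest (0.95) and Mrpl10 lowest (-0.41). Outside the family, the gene closest to the members' mean was Timm8b in liver (0.97), a chaperone of mitochondrial protein import, followed by Rpl8, Ogdh, Trim37 and Rpl6. In muscle it was Prdx2 (0.97), followed by Fxyd1, Timm9, Iscu and Nedd8, and in WAT Timm13 (0.99), also an import chaperone, followed by Uqcrq, Fam162a, BC003965 and Chchd2.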

How the data were processed

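Poly-A RNA was purified from 300 ng of total RNA, per the labels' protocols, with 1 column kit for liver and muscle and another for WAT; both a directional and a non-directional preparation appear in the protocol, and which one these libraries had is not stated. CASAVA 1.8, HISAT2 2.0.5, DESeq2 1.20.0 and the mm39 build are named in the submitters' processing notes; the counting tool and annotation release are not given in the sources used here. The authors deposited FPKM values per gene and library, in 6 tables, 1 for each tissue and pair of arms. The same tables hold the authors' deposited log2 fold changes and p-values, which were only quoted. FPKM times gene length gave whole reads in 100% of values (tolerance 0.001), and these reads were used for depth, the filter and 1 alternative.

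The members and lists were chosen with earlier results of these data known. A gene was tested if it had 10 reads (adjusted for depth) in a number of libraries equal to the smaller arm's size and 15 reads in all. Tests were run with limma 3.58.1 (R 4.3.3, trend) on log2(FPKM + 0.5), each pair of arms alone, with Benjamini-Hochberg adjustment over all genes tested; a count model had been planned had the tables held counts. PCOS vehicle columns were identical in the 2 tables that share them, so treated and control arms were compared over genes in both. Interactions and tissue contrasts used group means; the fit with the mouse as a replicate block was an alternative, since some mice, by the number in their titles, gave several tissues. Named members are those listed by role, those called, the 3 largest differences each way per comparison and the highest and lowest levels; between tissues, naming was limited, after seeing the data, to members that kept their call in every alternative, and members without overlap between arms were also named after their values were seen. The fits were tested on simulated data. Alternatives were pseudocounts of 0.1 and 1, no filter, libraries rescaled to an equal FPKM total or centred on their median, voom on the recovered reads, 3 arms fitted together and each mouse left out. Depth was 12389970 to 19639244 reads per library, and p-values measure the spread between mice.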

Additional observations from a re-analysis of the deposited data

Results flagged for a closer look

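In 14 of 141 groups of 4 to 6 mice 1 library lay apart from the rest by Dixon's test at its 95% value. Chance gives about 1 in 20 for independent groups. These groups share libraries, and some genes were named for their differences, so the count cannot be set against that rate. Mouse 802, a control, accounts for 6 of them: in muscle for Mrpl14 (75.8 FPKM), Mrpl19 (3.38) and Mrps36 (51.4), and in WAT for Mrpl30 (31.9), Mrpl33 (11.4) and Mrpl50 (15.3). PCOS mouse 785 accounts for 4: in WAT for Mrpl12 (118 FPKM), Mrps18b (12.1) and Mrps24 (63.9), where it was highest, and in muscle for Mrpl3 (6.63), where it was lowest. The others were Mrpl54 in the liver of PCOS mouse 773 (99.5 FPKM), Mrps28 in the liver of control mouse 801 (18.6), Mrpl33 in WAT of roxadustat mouse 764 (4.10) and Mrps24 in WAT of control mouse 789 (32.7).

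Mrps36 differed between tissues in its PCOS minus control difference, by -1.49 for WAT minus liver, as tested by limma's interaction term.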

How the results depend on the processing

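No called member turned its direction, but under 1 scaling other members were called the other way. With libraries rescaled to an equal FPKM total the members' median was 0.0077 for PCOS minus control in liver, 0.13 for roxadustat minus control in liver, -0.069 for roxadustat minus control in WAT (4 called, 3 of them higher), and, for the interactions, -0.071 for WAT minus liver (0 called) and -0.054 for WAT minus muscle; between tissues of control mice it was 0.51 for muscle minus liver, 0.76 for WAT minus liver (51 called) and 0.42 for WAT minus muscle. By voom, roxadustat minus control in WAT had 5 called, the WAT minus liver interaction 0, WAT minus liver 52 with a median of 0.70, and WAT minus muscle a median of 0.63. Without the filter roxadustat minus control in WAT had 1 called, and with the 3 arms together 0. With the length trend removed, added after seeing the data, the WAT minus liver interaction had 0 called and WAT minus muscle in control mice a median of -0.32. The cause was not tested.

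Leaving out 1 mouse at a time gave 0 to 1 called for roxadustat minus control in liver (1 without mouse 808), 0 to 2 for PCOS minus control in WAT (2 without mouse 785), 1 to 15 for roxadustat minus control in WAT, 0 to 10 for the WAT minus liver interaction and 0 to 1 for WAT minus muscle (1 without mouse 785). Shares of all genes called in these runs are not given here, so these counts describe the members alone. Of 39 single members called, 26 kept the call in every alternative. With the mouse as a replicate block the WAT minus liver interaction still had 1 called, the other interactions 0, and the tissue contrasts 35, 29 and 39; it moved no count of calls by over 1.5 times. Arms within a tissue share no mouse, so no paired fit applies there. Between arms 0% to 5.79% of all genes were called, so a missing call does not show equal levels.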
